A study of Mus musculus with 4 samples.

Results

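The tumour necrosis factor (TNF) superfamily was described across 4 RNA sequencing libraries labelled as mammary tumour fibroblasts, 2 irradiated and 2 unirradiated. Its members were taken by gene name: protein-coding genes whose symbol starts with Tnfsf or Tnfrsf followed by a digit, and Tnf, Lta, Ltb, Ltbr, Fas, Fasl, Cd27, Cd70, Cd40, Cd40lg and Ngfr. This gave 42 genes, 25 receptors and 17 ligands, of 54532 genes in the deposited count tables. The rule used gene names only, but it was set with earlier results of these data known. The irradiated libraries came from tumours given targeted radiation of 6 Gy at day 6, and the unirradiated libraries from tumours that received none. All tumours were MMTV-PyMT tumours of C57BL/6 mice carrying the Dll1 mcherry+ reporter, in which the MMTV promoter drives the polyoma middle T oncogene in mammary epithelium. Both groups are labelled as primary mouse breast cancer-associated fibroblasts (CAFs), detected with a PDGFRa antibody in collagenase and hyaluronidase digests. The sources used here do not say which fraction was sequenced, whether libraries A and B came from separate mice, how old these were or how long after radiation they were sampled. The p-values therefore measure the spread between the libraries of a group, pooled largely over all genes tested, and this spread may be technical.

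TNF superfamily ligands are mostly membrane-anchored trimers that are shed by proteases, and they bind receptors with cysteine-rich repeats outside the cell. Receptors with an intracellular death domain can recruit adaptors that activate caspase-8, while receptors without one bind TRAF adaptors and activate NF-kB kinases. Decoy receptors bind ligand without passing on the signal. In the mammary gland the family is best known for the RANK ligand and its receptor RANK, encoded by Tnfsf11 and Tnfrsf11a, which drive growth of the epithelium, and in lymphoid tissue for costimulation of T and B cells.

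The libraries held 15817969 and 23763830 counts for irradiated A and B, and 17569515 and 13011489 counts for unirradiated A and B. Values are CPM, read counts relative to library size, scaled with edgeR's TMM factors, in which 1 count was worth 0.0403 to 0.0809 CPM. Marker genes of the labelled cell type and of others were present in all 4 libraries. Over all genes tested, 33.9% were called higher after irradiation and 32.5% lower. Fibroblast markers summed to 1833 and 1842 CPM in irradiated libraries, against 577 and 542 CPM in unirradiated ones, and 10 of 12 were higher and 0 lower after irradiation. Epithelial and tumour cell markers summed to 8397 and 8733 CPM in irradiated and 9142 and 9165 CPM in unirradiated libraries (4 higher and 5 lower of 12). The epithelial sum was thus above the fibroblast sum in every library, despite the fibroblast label, in CPM not scaled for gene length. Macrophage markers summed to 827 and 825 CPM in irradiated against 329 and 328 CPM in unirradiated libraries (11 of 12 higher), and endothelial markers to 201 and 189.6 CPM against 89.2 and 92.1 CPM (8 of 10 higher). T and NK cell markers summed to 10.4 and 10.8 CPM in irradiated against 18.3 and 21.4 CPM in unirradiated libraries, and 5 of the 7 tested were lower and 0 higher. Dendritic cell markers summed to 41.2 and 40.6 CPM in irradiated and 22.1 and 21.4 CPM in unirradiated libraries (3 higher and 1 lower of 4 tested). B and plasma cell markers had 2 higher and 4 lower of 7 tested, with sums of 241 and 231 CPM in irradiated and 212 and 207 CPM in unirradiated libraries that came mostly from Sdc1, which epithelium also makes (10.04 and 9.32 CPM in irradiated and 12.2 and 12.1 CPM in unirradiated libraries without it). Of the 9 neutrophil markers 1 was higher, Ltf, which mammary epithelium makes too, and 6 were lower, with sums of 2145 and 2146 CPM in irradiated and 377 and 383 CPM in unirradiated libraries that came mostly from Ltf. Without Ltf the neutrophil sums were lower in irradiated libraries, at 57.7 and 24.1 CPM against 74.4 and 67.6 CPM in unirradiated ones. Irradiated B stood below irradiated A there, as with S100a9 at 2.18 CPM in B and 14.9 CPM in A. No listed marker was at 0 in all 4 libraries, while the B cell marker Ms4a1 was at 0 in both irradiated ones. Pdgfra itself averaged 23.7 CPM in irradiated and 5.59 CPM in unirradiated libraries. Marker sums of several cell types thus moved with irradiation beside the results given here, their part in the results was not tested, and fewer cells of a type and less RNA per cell cannot be told apart in bulk samples.

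Of the 42 members, 31 had enough counts to be tested and 11 did not. After irradiation 13 of the 31 were higher and 11 lower at an adjusted p under 0.05, with 7 not called. Over all 15961 genes tested, 66.4% were called, 33.9% higher and 32.5% lower, so a call by itself sets no member apart. The irradiated and unirradiated libraries did not overlap for 29 of the 31 members, against 82.5% of all genes tested. The median log2 fold change, irradiated over unirradiated, was 0.20 over the 31 members and -0.00 over all genes. Receptors had 8 higher and 9 lower of 21 tested (median 0.08), and ligands 5 higher and 2 lower of 10 tested (median 0.58). Of the 31, Tnfsf18 passed the filter on low counts only through the irradiated libraries and Tnfrsf4 and Lta only through the unirradiated ones, so a difference of these 3 was built into their passing. Several of the 11 lower calls were lost without unirradiated B, and several without irradiated B, as given for each member below. With the trend of fold change on gene length removed, 16 members were higher and 7 lower. Under a test against a 1.5-fold change, 7 members were called higher and 3 lower, where 12.7% of all genes tested were higher and 11.0% lower.

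**Figure D1:**
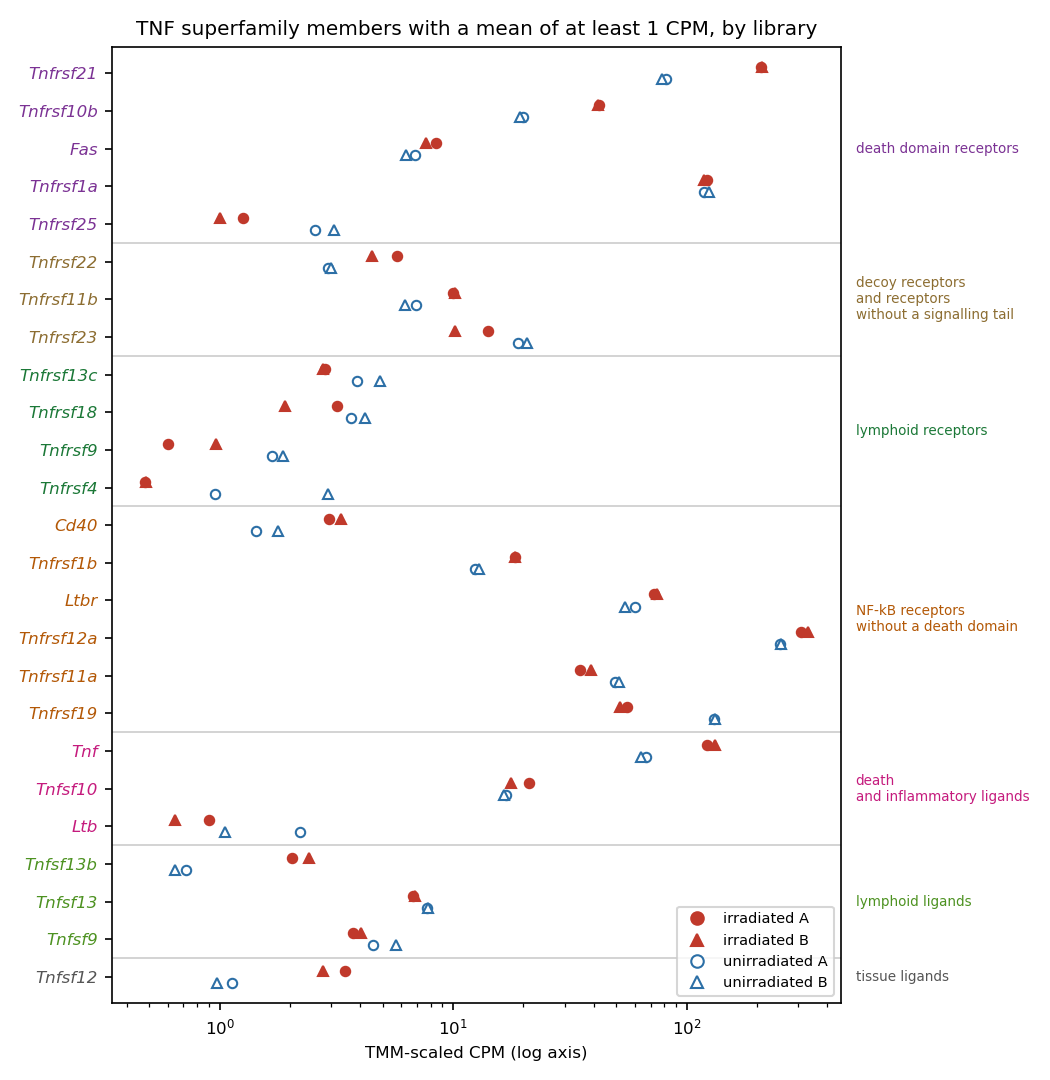
TMM-scaled CPM (log axis) of the 25 members with a mean of at least 1 CPM, by role, with filled red points for irradiated and open blue points for unirradiated libraries, circles for A and triangles for B. Tnfrsf21, Tnfrsf10b and Tnf lie well to the right and Tnfrsf19 and Tnfrsf25 to the left in irradiated libraries, while the 4 points of Tnfrsf1a overlap.

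The 6 death domain receptors did not move together, with 2 higher, 2 lower and 2 not called after irradiation (median log2 fold change 0.13). Here and for the other roles, counts of calls stand beside 33.9% higher and 32.5% lower over all genes tested. Tnfrsf21, which encodes death receptor 6, a receptor studied mostly in neurons and lymphocytes, lies on mm10 chromosome 17 from 43016555 to 43089189 on the plus strand. It had 208 and 209 CPM in irradiated libraries against 81.3 and 78.3 CPM in unirradiated libraries. Both irradiated libraries were far above both unirradiated ones, with a log2 fold change of 1.38 (SE 0.0535, adjusted p = 5.66e-33). Tnfrsf10b, the mouse receptor for the death ligand TRAIL and a known p53 target, had 42.1 and 41.8 CPM in irradiated against 19.9 and 19.3 CPM in unirradiated libraries. Its groups were also well separated, with a log2 fold change of 1.10 (SE 0.0907, adjusted p = 7.89e-17), a 2.14-fold difference.

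Of the other 4 death domain receptors, 2 were lower and 2 did not pass the test. Tnfrsf1a, the main TNF receptor on most cells, had 123 and 118 CPM in irradiated and 118 and 124 CPM in unirradiated libraries. These groups overlapped and the log2 fold change was -0.01 (SE 0.0540, adjusted p = 0.882). Fas, the receptor of the Fas ligand, had 8.42 and 7.67 CPM in irradiated and 6.86 and 6.31 CPM in unirradiated libraries. Its irradiated values were the higher ones without overlap, but the log2 fold change of 0.27 (SE 0.175) did not pass the test (adjusted p = 0.172). Tnfrsf25, which encodes death receptor 3, a costimulator of T cells, had 1.26 and 1.01 CPM in irradiated against 2.57 and 3.07 CPM in unirradiated libraries. It was lower in both irradiated libraries, with a log2 fold change of -1.32 (SE 0.340, adjusted p = 0.000564). Ngfr, the low-affinity neurotrophin receptor, averaged under 1 CPM and was called lower (log2 fold change -1.23, SE 0.497, adjusted p = 0.0254). Its call was lost without irradiated B (-0.98), without unirradiated B (-0.81) and in DESeq2. With the trend of fold change on gene length removed, Fas was called higher (0.58, adjusted p = 0.00293) and so was Tnfrsf1a (0.18, adjusted p = 0.00242).

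**Figure D2:**
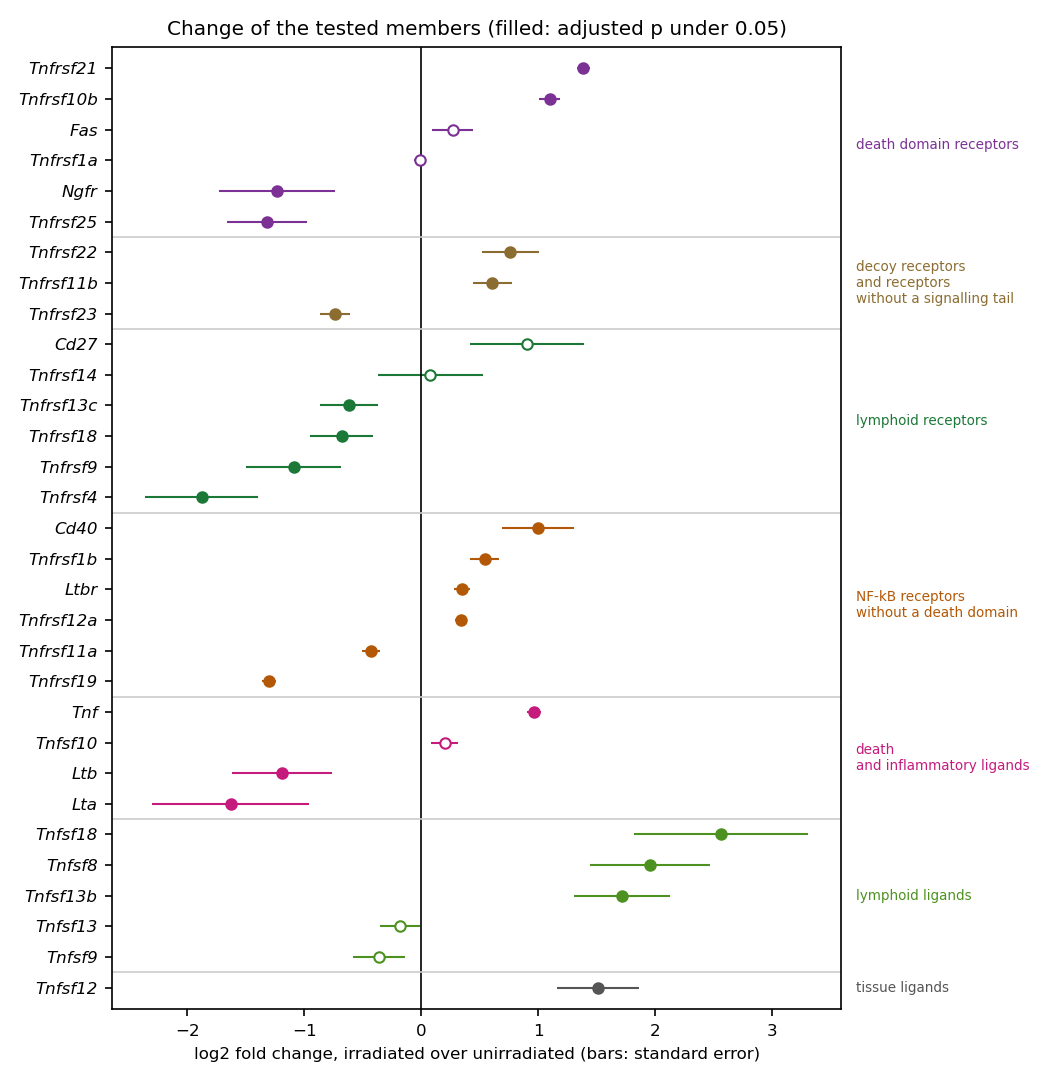
Log2 fold change of each of the 31 tested members, irradiated over unirradiated, with bars of 1 standard error, filled where the adjusted p was under 0.05 and grouped by role. Death domain receptors lie on both sides of 0, the called lymphoid receptors on the left and the called lymphoid ligands on the right.

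All 3 tested decoy receptors and receptors without a signalling tail were called, 2 higher and 1 lower. Tnfrsf11b, which encodes osteoprotegerin, the soluble decoy for RANK ligand and TRAIL, had 9.98 and 10.2 CPM in irradiated against 6.92 and 6.23 CPM in unirradiated libraries. Its irradiated values were higher without overlap, with a log2 fold change of 0.61 (SE 0.165, adjusted p = 0.00107). Tnfrsf22 and Tnfrsf23 encode mouse decoy receptors for TRAIL and are neighbours on chromosome 7. Tnfrsf22 had 5.77 and 4.48 CPM in irradiated against 2.92 and 2.99 CPM in unirradiated libraries (log2 fold change 0.76, SE 0.242, adjusted p = 0.00483). Tnfrsf23 had 14.1 and 10.2 CPM in irradiated against 19.0 and 20.6 CPM in unirradiated libraries (log2 fold change -0.74, SE 0.127, adjusted p = 8.36e-07). The neighbours thus differed in direction, and the irradiated libraries of each lay further apart than its unirradiated ones. The Tnfrsf22 call was lost without irradiated A (0.61), and the Tnfrsf23 change was -0.47 without irradiated B. In the GENCODE M21 transcripts, 17.3% of the 50-base stretches of Tnfrsf22 also occur in Tnfrsf23, so reads could be split between them and the values of each are uncertain.

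Receptors without a death domain that signal to NF-kB were all called, 4 higher and 2 lower (median log2 fold change 0.34). Tnfrsf12a, which encodes Fn14, the receptor for TWEAK in injured tissue, was the most abundant member. It had 308 and 331 CPM in irradiated against 252 and 255 CPM in unirradiated libraries, a 1.26-fold difference (log2 fold change 0.34, SE 0.0452, adjusted p = 1.82e-09). Ltbr, the lymphotoxin beta receptor of stromal cells, had 72.5 and 74.5 CPM in irradiated against 60.3 and 54.6 CPM in unirradiated libraries (log2 fold change 0.35, SE 0.0660, adjusted p = 5.02e-06). Both were higher in each irradiated library than in either unirradiated one, by small folds. Tnfrsf1b, the second TNF receptor, which is mostly found on immune and endothelial cells, had 18.3 and 18.4 CPM in irradiated against 12.4 and 12.9 CPM in unirradiated libraries (log2 fold change 0.54, SE 0.121, adjusted p = 8.94e-05). Cd40, the receptor by which T cells license antigen-presenting cells, had 2.95 and 3.31 CPM in irradiated against 1.43 and 1.78 CPM in unirradiated libraries (log2 fold change 1.00, SE 0.311, adjusted p = 0.00397). The Cd40 groups did not overlap, but its call was lost without irradiated B (0.91), without unirradiated A (0.83) and in DESeq2.

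In the same class Tnfrsf19 and Tnfrsf11a were lower. Tnfrsf19, which encodes TROY, an orphan receptor of embryonic and stem-like epithelium, lies on chromosome 14 from 60963875 to 61046490 on the minus strand. It had 55.7 and 51.6 CPM in irradiated against 131 and 133 CPM in unirradiated libraries. Both irradiated libraries were far below both unirradiated ones, with a log2 fold change of -1.30 (SE 0.0597, adjusted p = 5.15e-29). Tnfrsf11a, which encodes RANK, had 35.0 and 38.9 CPM in irradiated against 49.3 and 51.2 CPM in unirradiated libraries. These did not overlap either, with a smaller log2 fold change of -0.43 (SE 0.0764, adjusted p = 1.46e-06).

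Of the 9 lymphoid receptors 6 were tested, 4 of which were lower and 0 higher (median log2 fold change -0.65). These stood at a few CPM or less, beside T and NK cell markers of which 5 of 7 tested were lower, and the part of those cells was not tested. Tnfrsf4, which encodes OX40, a costimulator of activated T cells, had 0.481 and 0.484 CPM in irradiated against 0.954 and 2.91 CPM in unirradiated libraries (log2 fold change -1.87, SE 0.483, adjusted p = 0.000565). Its high unirradiated value came from 1 library, and the ratio of summed scaled counts was 0.270, with an exact 95% interval of 0.153 to 0.461 that covers counting error only. Tnfrsf9, encoding the costimulator 4-1BB, had 0.601 and 0.968 CPM in irradiated against 1.67 and 1.86 CPM in unirradiated libraries (log2 fold change -1.09, SE 0.406, adjusted p = 0.0160). Tnfrsf18, encoding GITR of regulatory T cells, had 3.19 and 1.90 CPM in irradiated against 3.64 and 4.21 CPM in unirradiated libraries (log2 fold change -0.68, SE 0.271, adjusted p = 0.0237). Each was lower in both irradiated libraries, Tnfrsf18 by a narrow gap. Tnfrsf13c, encoding the BAFF receptor of B cells, had 2.83 and 2.78 CPM in irradiated against 3.88 and 4.85 CPM in unirradiated libraries (log2 fold change -0.62, SE 0.249, adjusted p = 0.0260). Cd27, a costimulator of T cells, and Tnfrsf14, the LIGHT receptor HVEM, averaged under 1 CPM and had log2 fold changes of 0.90 (SE 0.487, adjusted p = 0.0978) and 0.08 (SE 0.449, adjusted p = 0.889). The Tnfrsf14 libraries overlapped, and its log2 fold change spanned -0.39 to 1.15 as single libraries were left out.

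Calls among the lymphoid receptors rested on few counts. Without unirradiated B none of the 4 stayed called, with log2 fold changes of -0.97 for Tnfrsf4, -1.02 for Tnfrsf9, -0.58 for Tnfrsf18 and -0.46 for Tnfrsf13c. Tnfrsf4 was at -2.57 without unirradiated A. Tnfrsf9 was also lost without irradiated A (-0.84) and unirradiated A (-1.17), Tnfrsf13c without irradiated A (-0.61) and irradiated B (-0.59), and Tnfrsf18 without irradiated B (-0.27). DESeq2 called 1 of them lower, and with the length trend removed Tnfrsf13c (-0.35) and Tnfrsf18 (-0.30) were not called and Cd27 was called higher (1.12, adjusted p = 0.0386). The antisense gene Gm16008 shares 18.7% of the 50-base stretches of Tnfrsf18, and a kit without strand cannot tell them apart. Cd27 lies within Vamp1 on the other strand, a gene with a log2 fold change of 0.90. Vamp1 had 73.8 and 68.3 CPM in irradiated and 37.8 and 38.2 CPM in unirradiated libraries. Tnfrsf9 overlaps Camta1 on the other strand, which was lower too (log2 fold change -1.27). Neither pair shared a 50-base transcript stretch, but the part of Vamp1 and Camta1 reads in these low counts was not tested. The values of Cd27 and Tnfrsf9 are therefore uncertain.

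Death and inflammatory ligands were headed by Tnf, the founding cytokine of the family, on chromosome 17 from 35199381 to 35202007 on the minus strand. It had 122 and 132 CPM in irradiated against 66.6 and 63.8 CPM in unirradiated libraries, a 1.94-fold difference (log2 fold change 0.96, SE 0.0597, adjusted p = 2.35e-22). The groups were far apart next to the spread within each. Sums of macrophage, fibroblast, endothelial and dendritic cell markers were higher in the same libraries, and the part of any cell type in the Tnf values was not tested. Ltb, the lymphotoxin chain that anchors the trimer to the lymphocyte membrane, had 0.902 and 0.646 CPM in irradiated against 2.21 and 1.05 CPM in unirradiated libraries (log2 fold change -1.19, SE 0.426, adjusted p = 0.0121). Lta, the soluble lymphotoxin chain, had 2 and 7 counts in irradiated against 12 and 8 counts in unirradiated libraries (log2 fold change -1.63, SE 0.669, adjusted p = 0.0283). The ratio of summed scaled counts of Lta was 0.316 (exact 95% interval 0.127 to 0.727). Tnfsf10, which encodes TRAIL, had 350 and 440 counts, or 21.05 and 17.8 CPM, in irradiated and 16.9 and 16.4 CPM in unirradiated libraries. The TRAIL values did not overlap, but the log2 fold change of 0.20 (SE 0.115) did not pass the test (adjusted p = 0.119), and it did without irradiated B (0.35, adjusted p = 0.0323). Ltb was not called without irradiated B (-0.91), without unirradiated A (-0.49), in DESeq2 or with the length trend removed (-0.81). Lta was not called without irradiated A (-1.25), irradiated B (-2.42) or unirradiated B (-1.69), in DESeq2 or with the length trend removed (-1.22).

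The genes for Ltb, Tnf and Lta lie side by side on chromosome 17, with 3060 bases between Ltb and Tnf and 1157 bases between Tnf and Lta, and Tnf was higher while Ltb and Lta were called lower. The calls of Ltb and Lta rest on few counts and were lost under 5 of 13 alternatives for Ltb and 7 of 12 for Lta, and Lta had passed the filter only through the unirradiated libraries where it is high. Promoters of these 3 genes and that of Tnfrsf21, the member on the same chromosome with the lowest adjusted p, are shown to set the sequence of adjacent members side by side, with no pattern read from them. Each run is RefSeq sequence of GRCm38.p6, from 250 bases before the start site to 50 after it, 5′ to 3′ on the gene's strand, with matches to the searched motifs in capitals: Tnf chr17:35201958-35202257 (minus strand), Lta chr17:35205302-35205601 (minus strand), Ltb chr17:35194257-35194556 (plus strand) and Tnfrsf21 chr17:43016305-43016604 (plus strand).
Tnf: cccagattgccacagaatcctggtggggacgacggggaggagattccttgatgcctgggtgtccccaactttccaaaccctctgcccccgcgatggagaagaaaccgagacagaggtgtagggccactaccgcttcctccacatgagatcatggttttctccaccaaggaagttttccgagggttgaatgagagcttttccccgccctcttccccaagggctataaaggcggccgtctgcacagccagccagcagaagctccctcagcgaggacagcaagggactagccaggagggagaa
Lta: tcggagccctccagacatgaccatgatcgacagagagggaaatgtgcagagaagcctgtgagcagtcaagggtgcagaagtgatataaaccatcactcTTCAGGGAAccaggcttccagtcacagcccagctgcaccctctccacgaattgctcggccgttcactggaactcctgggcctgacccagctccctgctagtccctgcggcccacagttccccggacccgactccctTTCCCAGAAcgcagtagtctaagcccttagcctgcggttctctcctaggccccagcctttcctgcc
Ltb: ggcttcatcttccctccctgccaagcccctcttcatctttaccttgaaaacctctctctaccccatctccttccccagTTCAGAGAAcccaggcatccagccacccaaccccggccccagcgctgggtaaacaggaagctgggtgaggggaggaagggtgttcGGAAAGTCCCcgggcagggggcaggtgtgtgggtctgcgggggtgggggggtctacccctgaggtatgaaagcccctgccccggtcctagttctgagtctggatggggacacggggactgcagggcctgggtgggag
Tnfrsf21: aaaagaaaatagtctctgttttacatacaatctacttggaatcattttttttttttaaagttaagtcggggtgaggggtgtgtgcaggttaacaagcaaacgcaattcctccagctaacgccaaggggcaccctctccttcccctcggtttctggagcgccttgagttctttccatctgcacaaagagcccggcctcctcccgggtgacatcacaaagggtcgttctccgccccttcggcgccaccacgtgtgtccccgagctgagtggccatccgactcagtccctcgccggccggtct
The Ltb window holds an NF-kB consensus that begins 87 bases before the start site and a GAS element (TTCNNNGAA) further upstream, and the Lta window holds 2 GAS elements. The Tnf and Tnfrsf21 windows hold no match to the searched letters, which says nothing of other sites or of a factor. Both strands were searched for the NF-kB consensus, AP-1 (TGANTCA), the p53 half-site, ISRE and GAS, and overlapping matches of different motifs were counted for each. Promoters were in the table for 32 members, as 36 windows. The NF-kB consensus was in 4 of these 36 and in 8.46% of all 32851 windows, and ISRE in 4 and in 3.44%. GAS was in 9 and in 8.30%. AP-1 was in 7 windows of 6 members and in 7.81%, and the p53 half-site in 4 windows of 3 members and in 8.36%. The overlapping Tnfsf13b windows hold the same AP-1 and p53 sites, which were counted in each. A match is a description of the letters only.

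**Figure D3:**
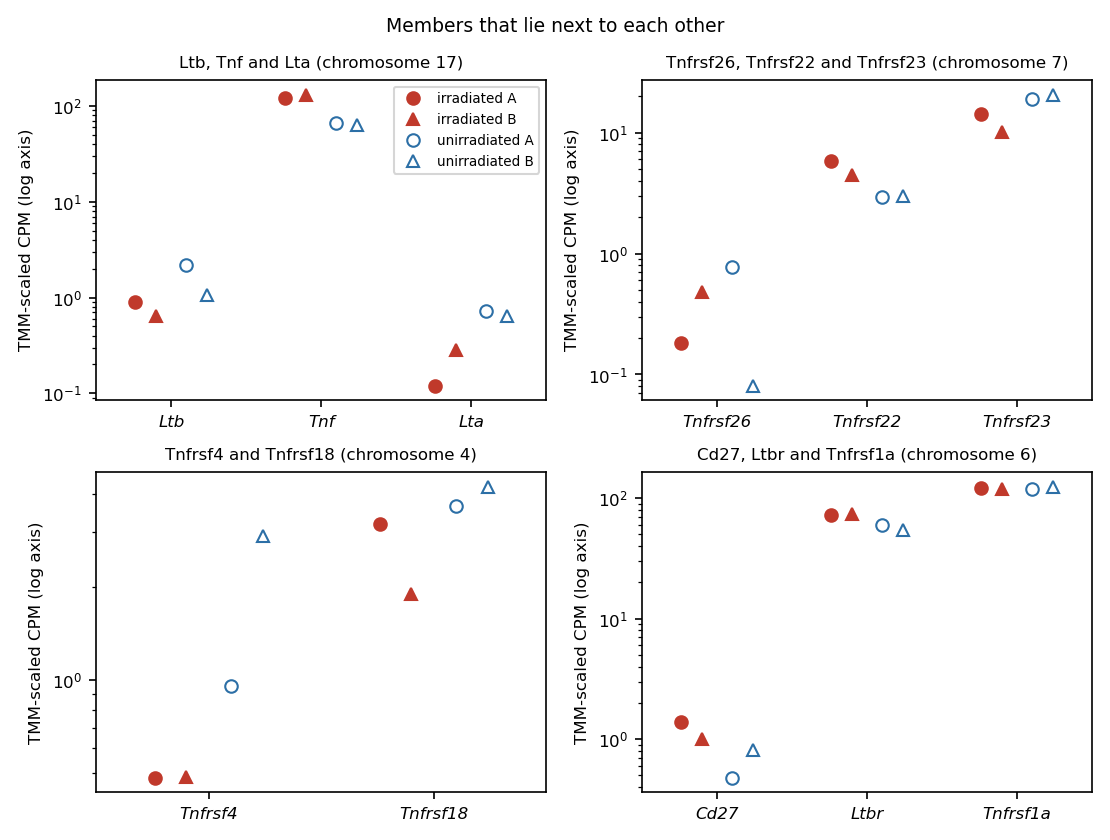
TMM-scaled CPM (log axis) of members that lie next to each other, in 4 panels, with filled red points for irradiated and open blue points for unirradiated libraries. Tnf is higher and Ltb and Lta lower in irradiated libraries, Tnfrsf22 is higher and Tnfrsf23 lower, Tnfrsf4 and Tnfrsf18 are both lower, and Tnfrsf1a overlaps beside a higher Ltbr.

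Members within 100 kb of each other formed 9 clusters that held 22 of the 42 genes. In 2 of the 9, a higher and a lower member lay together, the Ltb, Tnf and Lta genes and the Tnfrsf26, Tnfrsf22 and Tnfrsf23 genes. Tnfrsf4 and Tnfrsf18, 9551 bases apart on chromosome 4, were both called lower, but Tnfrsf4 had passed the filter only through the unirradiated libraries, and neither call held without unirradiated B (adjusted p = 0.185 for Tnfrsf4 and 0.102 for Tnfrsf18). Ltbr was higher beside Tnfrsf1a, whose libraries overlapped, 35476 bases away on chromosome 6. No pattern among neighbours was tested.

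Of the 9 lymphoid ligands 5 were tested, 3 of which were higher and 0 lower (median log2 fold change 1.71), all 3 from low counts. Tnfsf13b, which encodes BAFF, the survival factor of B cells that myeloid cells and stroma make, had 2.04 and 2.42 CPM in irradiated against 0.716 and 0.647 CPM in unirradiated libraries (log2 fold change 1.71, SE 0.409, adjusted p = 0.000218). The groups stood well apart, and its receptor gene Tnfrsf13c was lower in the same libraries. Tnfsf8, encoding CD30 ligand, had 28 and 39 counts in irradiated against 11 and 1 counts in unirradiated libraries (log2 fold change 1.96, SE 0.512, adjusted p = 0.000684). Its ratio of summed scaled counts was 3.93 (exact 95% interval 2.11 to 7.98), and its log2 fold change was 4.21 without unirradiated A and 1.30 without unirradiated B. Tnfsf18, encoding the GITR ligand, had 16 and 19 counts in irradiated against 1 and 3 counts in unirradiated libraries (log2 fold change 2.56, SE 0.744, adjusted p = 0.00206). Its ratio was 6.15 (exact 95% interval 2.20 to 23.8), and leaving out unirradiated A ended its call (1.77), with 3.69 without unirradiated B. The intervals of both were wide, and Tnfsf18 had passed the filter only through the irradiated libraries where it is high. Tnfsf13, encoding APRIL, had 6.74 and 6.86 CPM in irradiated and 7.70 and 7.77 CPM in unirradiated libraries (log2 fold change -0.18, SE 0.174, adjusted p = 0.357). Tnfsf9, encoding 4-1BB ligand, had 3.73 and 4.03 CPM in irradiated and 4.53 and 5.66 CPM in unirradiated libraries (log2 fold change -0.36, SE 0.222, adjusted p = 0.149). These 2 did not pass the test, and with the length trend removed their log2 fold changes were 0.17 for Tnfsf13 and 0.0826 for Tnfsf9.

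Among the 3 tissue ligands, Tnfsf12, which encodes TWEAK, was the 1 tested. It had 3.43 and 2.78 CPM in irradiated against 1.13 and 0.971 CPM in unirradiated libraries. Both irradiated libraries were above both unirradiated ones by more than the spread within a group, with a 2.85-fold difference (log2 fold change 1.51, SE 0.347, adjusted p = 0.000125). In the transcripts, 46.8% of the 50-base stretches of Tnfsf12 and 57.3% of those of Tnfsf13 are shared with the read-through gene Tnfsfm13, so the values of all 3 genes are uncertain.

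The 11 members without a test had at most 30 counts in any library. Tnfsf11, the RANK ligand, had 2 and 5 counts in irradiated and 2 and 1 counts in unirradiated libraries, and Fasl had 3 and 8 in irradiated and 3 and 4 in unirradiated libraries. No difference was detectable for either at this depth. Tnfsf4, encoding OX40 ligand, had 4 and 5 counts in irradiated libraries and 0 in both unirradiated ones, a 2.11-fold difference against a floor of 3 counts over the unirradiated group. For the ratio of the observed summed counts, scaled and without the floor, the exact 95% lower limit was 1.39. Tnfsf14, encoding LIGHT, had 1 and 8 counts in irradiated and 8 and 11 counts in unirradiated libraries, a ratio of 0.333 (exact 95% interval 0.133 to 0.773). Cd70 had 0 counts in all 4 libraries. The others, Tnfrsf26, Tnfrsf13b, Tnfrsf17, Tnfrsf8, Cd40lg and Tnfsf15, ranged from 0 to 30 counts per library.

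Levels of different members were compared per kilobase of gene length. Tnfrsf12a stood first in every library, at 159 and 171 CPM per kilobase in irradiated and 130.2 and 132 CPM per kilobase in unirradiated libraries. Tnf had rank 2 in irradiated libraries, at 74.4 and 80.4 CPM per kilobase, and rank 3 in unirradiated ones, at 40.7 and 38.9 CPM per kilobase. Tnfrsf21 had rank 3 in irradiated libraries and rank 6 in unirradiated ones, with 50.7 and 50.9 against 19.8 and 19.1 CPM per kilobase. Tnfrsf1a was close to it in irradiated libraries, at 47.3 and 45.6, and had 45.6 and 48.0 CPM per kilobase in unirradiated ones. The top of the order was thus held by a few receptors and Tnf.

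Ligands and receptors of a pair were often unequal: in 15 of 27 pairs the receptor was above its ligand in every library. Many of these ligands had too few counts to be tested, namely Tnfsf4, Tnfsf11, Tnfsf14, Tnfsf15, Fasl, Cd40lg and Cd70, the last without any counts. Tnfsf11 and Lta were each counted more than once. The level of Tnfrsf1a over that of Tnf was 0.636 and 0.567 in irradiated and 1.12 and 1.23 in unirradiated libraries. Tnfrsf10b over Tnfsf10 was 1.93 and 2.27 in irradiated and 1.14 and 1.13 in unirradiated libraries, while the decoy Tnfrsf23 over Tnfsf10 was 0.892 and 0.761 in irradiated and 1.49 and 1.67 in unirradiated libraries. The other TRAIL decoys went the other way, with Tnfrsf22 over Tnfsf10 at 0.343 and 0.315 in irradiated and 0.216 and 0.228 in unirradiated libraries, and Tnfrsf11b over Tnfsf10 at 0.886 and 1.07 in irradiated and 0.766 and 0.709 in unirradiated libraries. The decoys of TRAIL thus had no common direction, and the Tnfrsf22 and Tnfrsf23 values are uncertain because of their shared sequence. Tnfrsf12a over Tnfsf12 was 70.4 and 93.1 in irradiated and 174 and 206 in unirradiated libraries. Tnfrsf13c over Tnfsf13b was 4.64 and 3.86 in irradiated and 18.2 and 25.2 in unirradiated libraries. The Tnfsf12 values are uncertain too, because of the sequence shared with Tnfsfm13, and Tnfsf13b had only 12 and 8 counts in unirradiated libraries. These ratios are descriptions, without a test, and their genes may be expressed by different cells.

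**Figure D4:**
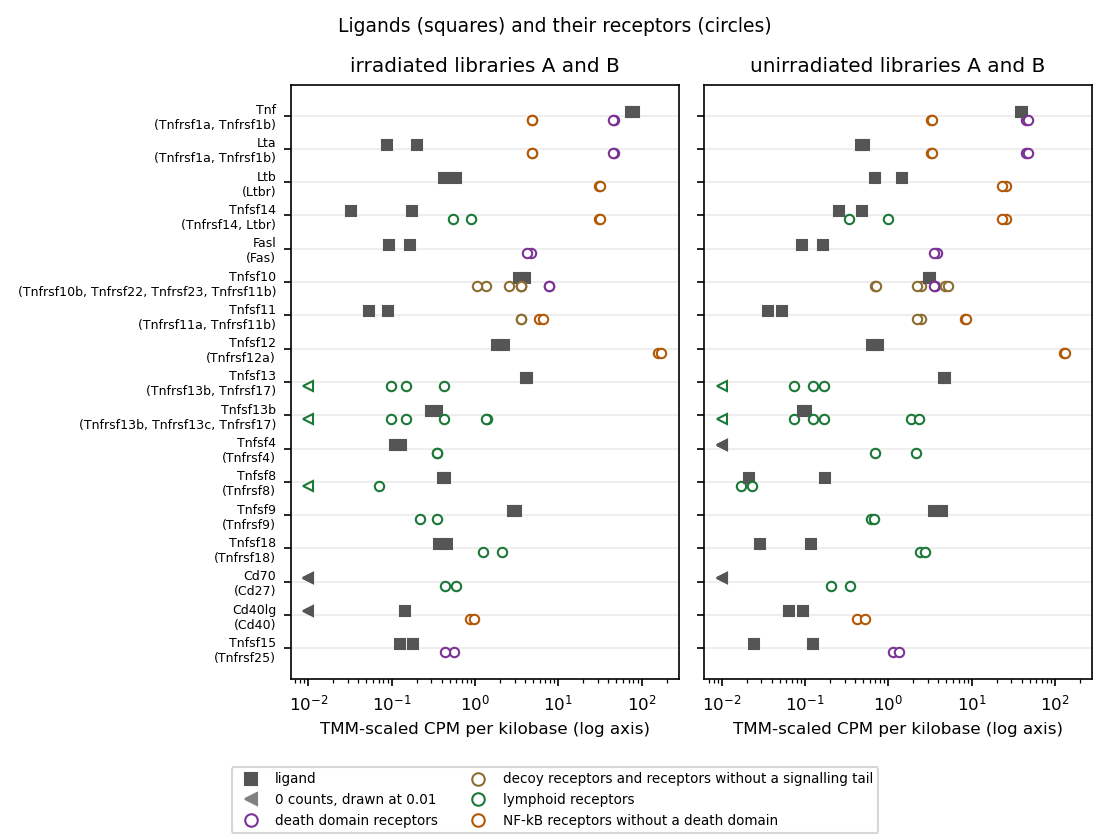
TMM-scaled CPM per kilobase (log axis) of each ligand (squares) and of its receptors (circles, coloured by class), with irradiated libraries on the left and unirradiated ones on the right, and 0 counts drawn at 0.01. Tnf lies to the right of Tnfrsf1a in irradiated libraries and just left of it in unirradiated ones, and Tnfrsf12a lies far to the right of Tnfsf12 in both.

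Downstream genes were taken from lists by function. Counts of calls in these lists stand beside 33.9% of all genes tested higher and 32.5% lower, and no list was tested as a set. Of 24 tested adaptors and ubiquitin-editing genes, 12 were higher and 6 lower (median log2 fold change 0.22). Tnfaip3, the A20 feedback inhibitor of NF-kB, averaged 594 ± 0.225 CPM in irradiated and 369.6 ± 12.3 CPM in unirradiated libraries (SD, n = 2 each, log2 fold change 0.68). Birc3, an inhibitor of receptor-induced death, averaged 54.4 ± 4.06 CPM in irradiated and 35.3 ± 0.793 CPM in unirradiated libraries (0.62), and Map3k7 (0.49) and Tnip1 (0.45) were higher too. Traf1, an adaptor of lymphoid receptors, averaged 9.54 ± 0.996 CPM in irradiated and 16.9 ± 2.60 CPM in unirradiated libraries (-0.82), and Sharpin (-0.45), Tab1 (-0.39) and Tradd (-0.31) were lower. The list thus held calls in both directions, with feedback inhibitors among the higher genes.

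Of 13 NF-kB kinases, subunits and inhibitors, 8 were higher and 3 lower (median 0.63), where 66.4% of all genes tested were called in either direction. Nfkbie, an inhibitor that is itself an NF-kB target, averaged 37.6 ± 0.954 CPM in irradiated and 11.2 ± 0.745 CPM in unirradiated libraries (log2 fold change 1.75). Subunit genes Rel (0.91), Relb (0.86) and Nfkb2 (0.76) were higher, while Bcl3 (-0.57), Ikbkb (-0.33) and Nfkbia (-0.20) were lower. Of 9 death arm genes 4 were higher and 1 lower (median 0.14). Xiap (0.56), a caspase inhibitor, and Casp8 (0.29), the caspase that the receptors activate first, were higher, and Bid, which links caspase-8 to mitochondria, was lower at 33.7 ± 1.18 CPM in irradiated against 58.4 ± 3.84 CPM in unirradiated libraries (-0.79). Of 5 shedding genes 4 were higher and 0 lower (median 0.50). Adam17, the protease that releases TNF, averaged 87.9 ± 0.955 CPM in irradiated and 62.2 ± 2.28 CPM in unirradiated libraries (0.50), and its inhibitor Timp3, also a stromal matrix gene, averaged 237 ± 4.29 CPM in irradiated and 36.8 ± 0.677 CPM in unirradiated libraries (2.68). Adam10 (0.64) and Rhbdf1 (0.39) were higher. The protease genes Adam10 and Adam17 and the inhibitor gene Timp3 thus had the same sign.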

How the data were processed

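Per the labels' protocols, libraries were made from poly(A) RNA with a kit without strand marking. The tools were HTSeq 0.6.1, STAR 2.5 and DESeq2 on mm10, per the submitters' processing notes, with settings not given in the sources used here. For each gene, the authors deposited raw whole-number counts without normalization, beside coordinates and a gene length in bases. Coordinates equal those of GENCODE M21 for 41 of the 42 members, all but Fas.

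Counts were tested with edgeR 4.0.16 in R 4.3.3 (filterByExpr, TMM scaling, quasi-likelihood F-test), and p-values were adjusted by Benjamini-Hochberg over the 15961 genes tested, with calls under 0.05. Adjusted p-values in the text come from this edgeR test. Its spread was pooled over genes, with a prior of 59.8 degrees of freedom beside 2 residual ones. The spread of a gene's own libraries therefore weighs little in its p-value. Each standard error is the size of the log2 fold change divided by the root of F. The filter asked for about 0.599 CPM, which is 10 counts at the median library size, in at least 2 libraries. Depth was 13011489 to 23763830 counts per library, and intervals and floors cover counting error only. Within a group, the chi-square of counts had a median of 2.14 (irradiated) and 2.11 (unirradiated) times that of counting alone, so each library was kept as a replicate. No batch is labelled, and the effects of one running along with the groups and of irradiation cannot be told apart. An exact permutation of 2 against 2 libraries cannot go below p = 0.333, and none was used. Alternatives were RLE and upper-quartile scaling, other filters, the older dispersion method, a 1.5-fold test, a replicate block, removal of the length trend, DESeq2 1.42.0, a threshold of 0.1 and leaving out each library. The fit was tested on simulated counts.

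The members, the lists and their roles were chosen with earlier results of these data known. Values per library are given for members that averaged 1 CPM or more. The other members are given by count or range, and named where they bear on a result. Of each downstream list, called genes averaging 5 CPM or more are named, up to 4 in each direction by size of change, except for some genes that are not reported here.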

Additional observations from a re-analysis of the deposited data

How the results depend on the processing

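Of 428 member values under the alternatives, 367 kept direction and side of the threshold, 49 lost the call, 4 gained it and 8 changed sign, 1 of which also gained a call (Tnfrsf1a with the length trend removed). Tnf, Tnfrsf10b, Tnfrsf19, Tnfrsf21, Tnfrsf25, Tnfsf12, Tnfsf13b and Tnfsf8 kept theirs under every alternative run. Sign changes were in members without a call in the results above: Tnfrsf1a had 0.0514 without a filter, 0.18 with the length trend removed and -0.0472 to 0.0299 as single libraries were left out, Tnfrsf14 had -0.39 to 1.15 as libraries were left out, and Tnfsf13 (0.17) and Tnfsf9 (0.0826) changed with the length trend removed. With the length trend removed, 16 members were higher and 7 lower, against 13 and 11 without that step. Members called higher (13) ranged from 11 to 13 and members called lower (11) from 5 to 9 as libraries were left out. A lone library was then assumed to vary like the other group. The 1.5-fold test called 7 members higher and 3 lower, and 2033 genes higher and 1753 lower in all. Members called lower numbered 7 without a filter and with a stricter one, and 5 in DESeq2. The stricter filter gave no value for 5 members. Median log2 fold change over all tested genes was -0.33 in genes up to 2818 bases long and 0.20 in those of at least 5364 bases, and the cause was not tested. Same-letter libraries had deviations from the group means that correlated at 0.0116, so the letters were not taken as pairs, and with the replicate block 13 members were higher and 11 lower, and 5420 genes higher and 5199 lower in all. Depth limits members under about 1 CPM.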

Other observations

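Family members outside the gene name rule moved in different directions. Edar, the ectodysplasin receptor of skin appendages and mammary buds, averaged 1.35 ± 0.0345 CPM in irradiated and 9.57 ± 0.140 CPM in unirradiated libraries (SD, n = 2 each, log2 fold change -2.82, SE 0.237, edgeR adjusted p = 1.63e-16). Its ligand gene Eda had 2.83 and 3.43 CPM in irradiated against 1.67 and 1.13 CPM in unirradiated libraries (log2 fold change 1.14, SE 0.320, edgeR adjusted p = 0.00146). Eda2r, the other ectodysplasin receptor and a p53 target in other settings, averaged 7.68 ± 0.875 CPM in irradiated and 4.74 ± 0.0429 CPM in unirradiated libraries (log2 fold change 0.68, edgeR adjusted p = 0.00186). Relt, a further receptor of the family, had 8.36 and 9.60 CPM in irradiated and 8.71 and 7.77 CPM in unirradiated libraries, which overlapped, and was not called (log2 fold change 0.13, edgeR adjusted p = 0.483). The groups did not overlap for 3 of these 4 genes, against 82.5% of all genes tested.

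Tnfsf13os, an antisense gene over Tnfsf13 that was picked after its values were seen, had 2.23 and 2.22 CPM in irradiated against 3.58 and 4.77 CPM in unirradiated libraries (log2 fold change -0.88, SE 0.267, edgeR adjusted p = 0.00313). It shares 6.42% of the 50-base stretches of Tnfsf13, where a kit without strand cannot tell their reads apart.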
